A study of Homo sapiens with 30 samples.

Results

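The integrated stress response genes described here were 10 of the 60107 genes in the count table: ATF4, DDIT3, ATF3, TRIB3, CHAC1, SESN2, DDIT4, PPP1R15A, CEBPB and GDF15. They were chosen by symbol, and each symbol matched 1 row. The messenger RNA of 30 HepG2 cultures was counted. HepG2 is an established human liver cancer line, labelled hepatocellular carcinoma in the sample records and called hepatoblastoma in the study's methods. Every culture was transfected by lipofection, and 24 h later received 10 µM Sorafenib, a multikinase inhibitor used in advanced hepatocellular carcinoma, or its solvent dimethyl sulfoxide (DMSO). Lysates taken 6 h after Sorafenib or DMSO came from cells carrying the inhibitor control (IC) or the inhibitor of miR-200c-3p (I200c). Lysates taken 24 h after it came from cells carrying the mimic control (MC), the mimic of miR-222-5p (M222) or the mimic of miR-512-3p (M512). With and without Sorafenib this gave 10 groups of 3 cultures. No untransfected group was analysed here, all cultures came from 1 cell line, and the 2 times used different transfections, so time and the kind of transfection cannot be told apart.

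In the integrated stress response, kinases that sense amino acid shortage, endoplasmic reticulum stress, haem loss or double-stranded RNA phosphorylate the translation factor eIF2, which lowers protein synthesis overall and raises translation of the ATF4 message. ATF4 then switches on genes for amino acid supply and for the factors DDIT3 (CHOP), ATF3 and CEBPB, and PPP1R15A brings the phosphatase that reverses the signal. GDF15 is a secreted hormone of stressed cells whose receptor in the hindbrain reduces appetite, and it is known to be made by liver cells under stress and by tumours. The first steps of this response act on protein, which messenger RNA counts do not show.

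The promoters of 4 of the genes are shown because they carry, or lack, exact matches to sequence elements through which such factors are known to act. RefSeq sequence (GRCh38.p14) from 250 bases before to 50 after the transcription start was found for all 10 genes, and 5 of them had several start sites. Each window was searched on both strands for the C/EBP-ATF composite element TGATGNAA, the cyclic AMP response element TGACGTCA, the AP-1 element TGANTCA and the endoplasmic reticulum stress element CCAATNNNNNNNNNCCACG. No match overlapped another in these 10 genes. Capitals mark a match in the windows below, written 5′ to 3′ along the gene.
CHAC1 (chr15:40953221-40953520, plus strand): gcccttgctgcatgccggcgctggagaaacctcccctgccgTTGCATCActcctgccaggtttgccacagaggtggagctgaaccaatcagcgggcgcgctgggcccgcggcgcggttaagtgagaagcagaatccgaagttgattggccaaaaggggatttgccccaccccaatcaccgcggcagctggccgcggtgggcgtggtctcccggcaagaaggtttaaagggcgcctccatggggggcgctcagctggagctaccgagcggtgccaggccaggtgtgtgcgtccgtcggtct
PPP1R15A (chr19:48872171-48872470, plus strand): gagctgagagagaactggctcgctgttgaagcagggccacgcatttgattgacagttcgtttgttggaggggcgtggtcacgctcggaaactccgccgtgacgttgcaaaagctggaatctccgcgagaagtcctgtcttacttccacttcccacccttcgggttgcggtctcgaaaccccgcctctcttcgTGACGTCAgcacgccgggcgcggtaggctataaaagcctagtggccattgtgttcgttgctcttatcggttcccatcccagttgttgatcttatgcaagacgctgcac
DDIT3 (chr12:57520465-57520764, minus strand): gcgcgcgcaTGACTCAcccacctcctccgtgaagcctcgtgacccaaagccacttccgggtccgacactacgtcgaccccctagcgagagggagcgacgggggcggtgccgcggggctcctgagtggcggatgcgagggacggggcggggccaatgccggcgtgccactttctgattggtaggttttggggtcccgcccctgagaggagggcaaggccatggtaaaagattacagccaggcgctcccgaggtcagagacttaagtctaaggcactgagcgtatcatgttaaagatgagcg
GDF15 (chr19:18385908-18386207, plus strand): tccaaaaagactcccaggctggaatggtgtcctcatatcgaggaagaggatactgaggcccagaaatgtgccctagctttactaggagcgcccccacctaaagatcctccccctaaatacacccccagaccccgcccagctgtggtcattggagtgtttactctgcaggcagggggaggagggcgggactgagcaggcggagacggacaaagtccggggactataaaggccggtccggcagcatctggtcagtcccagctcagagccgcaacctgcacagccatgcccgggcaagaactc

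The composite element was found in CHAC1, on the minus strand, and in the upstream ATF3 window, on the plus strand. The base of the match furthest upstream along the gene was at position -209 from the start in CHAC1 and at -191 in ATF3. It occurred in 4.46% of the 27305 genes of the reference. The cyclic AMP response element was found in PPP1R15A at -58, against 2.25% of all genes. DDIT3 held an AP-1 element at -241, counted from the start site of the window printed, against 9.37% of all genes. An exact match to the stress element was in none of the 10 genes and in 0.0916% of all genes. Near matches were not searched, and the DDIT3 window above holds ccaatgccggcgtgccact, which differs from these letters in its last base. The windows of GDF15, ATF4, TRIB3, SESN2, DDIT4 and CEBPB held no exact match to any of the elements, so no element searched was matched in more than 2 of the 10 genes.

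Other sequences bear on the transfected oligonucleotides. These are the mature miRNAs of RefSeq (GRCh38.p14), with the seed, bases 2 to 8, in capitals.
miR-200c-3p: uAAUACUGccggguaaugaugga
miR-222-5p: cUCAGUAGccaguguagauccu
miR-512-3p: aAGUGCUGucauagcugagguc
The letters pairing with the seed were searched in the longest annotated 3′ UTR of each gene (GENCODE release 44). Of the 10 genes, 2 held a match for miR-222-5p, against 10.03% of 19226 genes, and none held one for miR-512-3p (21.47% of all genes) or miR-200c-3p (16.91%). The matches, in capitals, lay in the last exon of DDIT3 (chr12:57516733-57516761, minus strand) and of DDIT4 (chr10:72275685-72275713, plus strand), both in the 3′ UTR.
DDIT3: cccagaagtggCTACTGActaccctctca
DDIT4: tcggagcatcaCTACTGAcctgttgtagg
Levels of both genes with the mimic are given with the transfection comparisons. Mature miRNAs were not measured in these libraries, so the transfections themselves were not checked here.

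Libraries held 3938764 to 9657063 counts. Levels are given as TMM CPM, counts made relative to library size by scaling all 30 libraries together, and 0 counts allowed a level of up to 0.311 to 0.762 CPM, which covers counting error only. These libraries read 1 fragment near the 3′ end of a message, so levels are compared between samples and not between genes. Marker levels, unlike the others, are CPM of total counts without TMM scaling. The 8 hepatocyte markers examined were above 0 in every library, at 6023 to 16043 CPM in sum. Of 9 markers of other cells, the endothelial VWF and stromal DCN were at 0 in all 30 and the leukocyte PTPRC in 29, while the biliary KRT19 (224.8 to 595.3 CPM) and the macrophage CD68 (0.472 to 10.9 CPM) were above 0 in every library. The stromal COL1A1 (up to 11.9 CPM) and PDGFRB (up to 5.83), the endothelial PECAM1 (up to 3.08) and the biliary KRT7 (up to 1.41) were at 0 in 4, 8, 13 and 18 libraries, and their part in the results was not tested. In such bulk libraries, fewer cells making a message and less message in each cell cannot be told apart. Replicates are separate cultures of 1 line, so p-values measure the spread between cultures.

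Replicate 2 of MC and of M222 stood apart in these genes and is described before the results. Its 4 libraries held 3941570 to 4939876 counts, and the other 8 of the same groups 5691824 to 8756018. Over the 9 genes that passed the filter on low counts, replicate 2 was the highest of the 3 DMSO cultures for 7 genes in MC and 8 in M222. With Sorafenib it was the lowest of the 3 for 8 genes in MC and 8 in M222. In M512 replicate 2 was highest for 2 genes and lowest for 4 with DMSO, and highest for 2 and lowest for 3 with Sorafenib. The 4 libraries of replicate 2 in MC and M222 held 16132 to 16334 genes with a count, and the other 8 of these groups 13252 to 15365. The labels name no batch, and the part of depth or of the number of genes detected in this was not tested. Values without these 4 libraries, a fit chosen after seeing the data, are given beside the counts.

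With Sorafenib, 2 of the genes were higher at 6 h, in I200c, and 7 to 9 were higher at 24 h. A gene is called here at an adjusted p under 0.05, by the quasi-likelihood test of edgeR with Benjamini-Hochberg adjustment over all genes tested. CHAC1 did not pass the filter, so 9 of the 10 genes were tested. In IC, 0 of 9 were called, where 0.0393% of all genes were called and 0.0314% were higher. There, 3 of 9 had an unadjusted p under 0.05, as had 3.78% of all genes. DESeq2 called 0 of the 9 in IC and 34 among all genes. In I200c, DDIT3 and DDIT4 were higher, against 2.28% of all genes called and 0.911% higher. At 24 h, 7 of 9 were higher in MC (2.6% of all genes called, 1.8% higher), 8 of 9 in M222 (4.38% and 2.82%) and 9 of 9 in M512 (9.96% and 5.34%), and none was lower. ATF4 and DDIT4 were not called in MC, nor was DDIT4 in M222. Without replicate 2 of MC and M222, 8 were called in MC and 9 in M222.

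**Figure D1:**
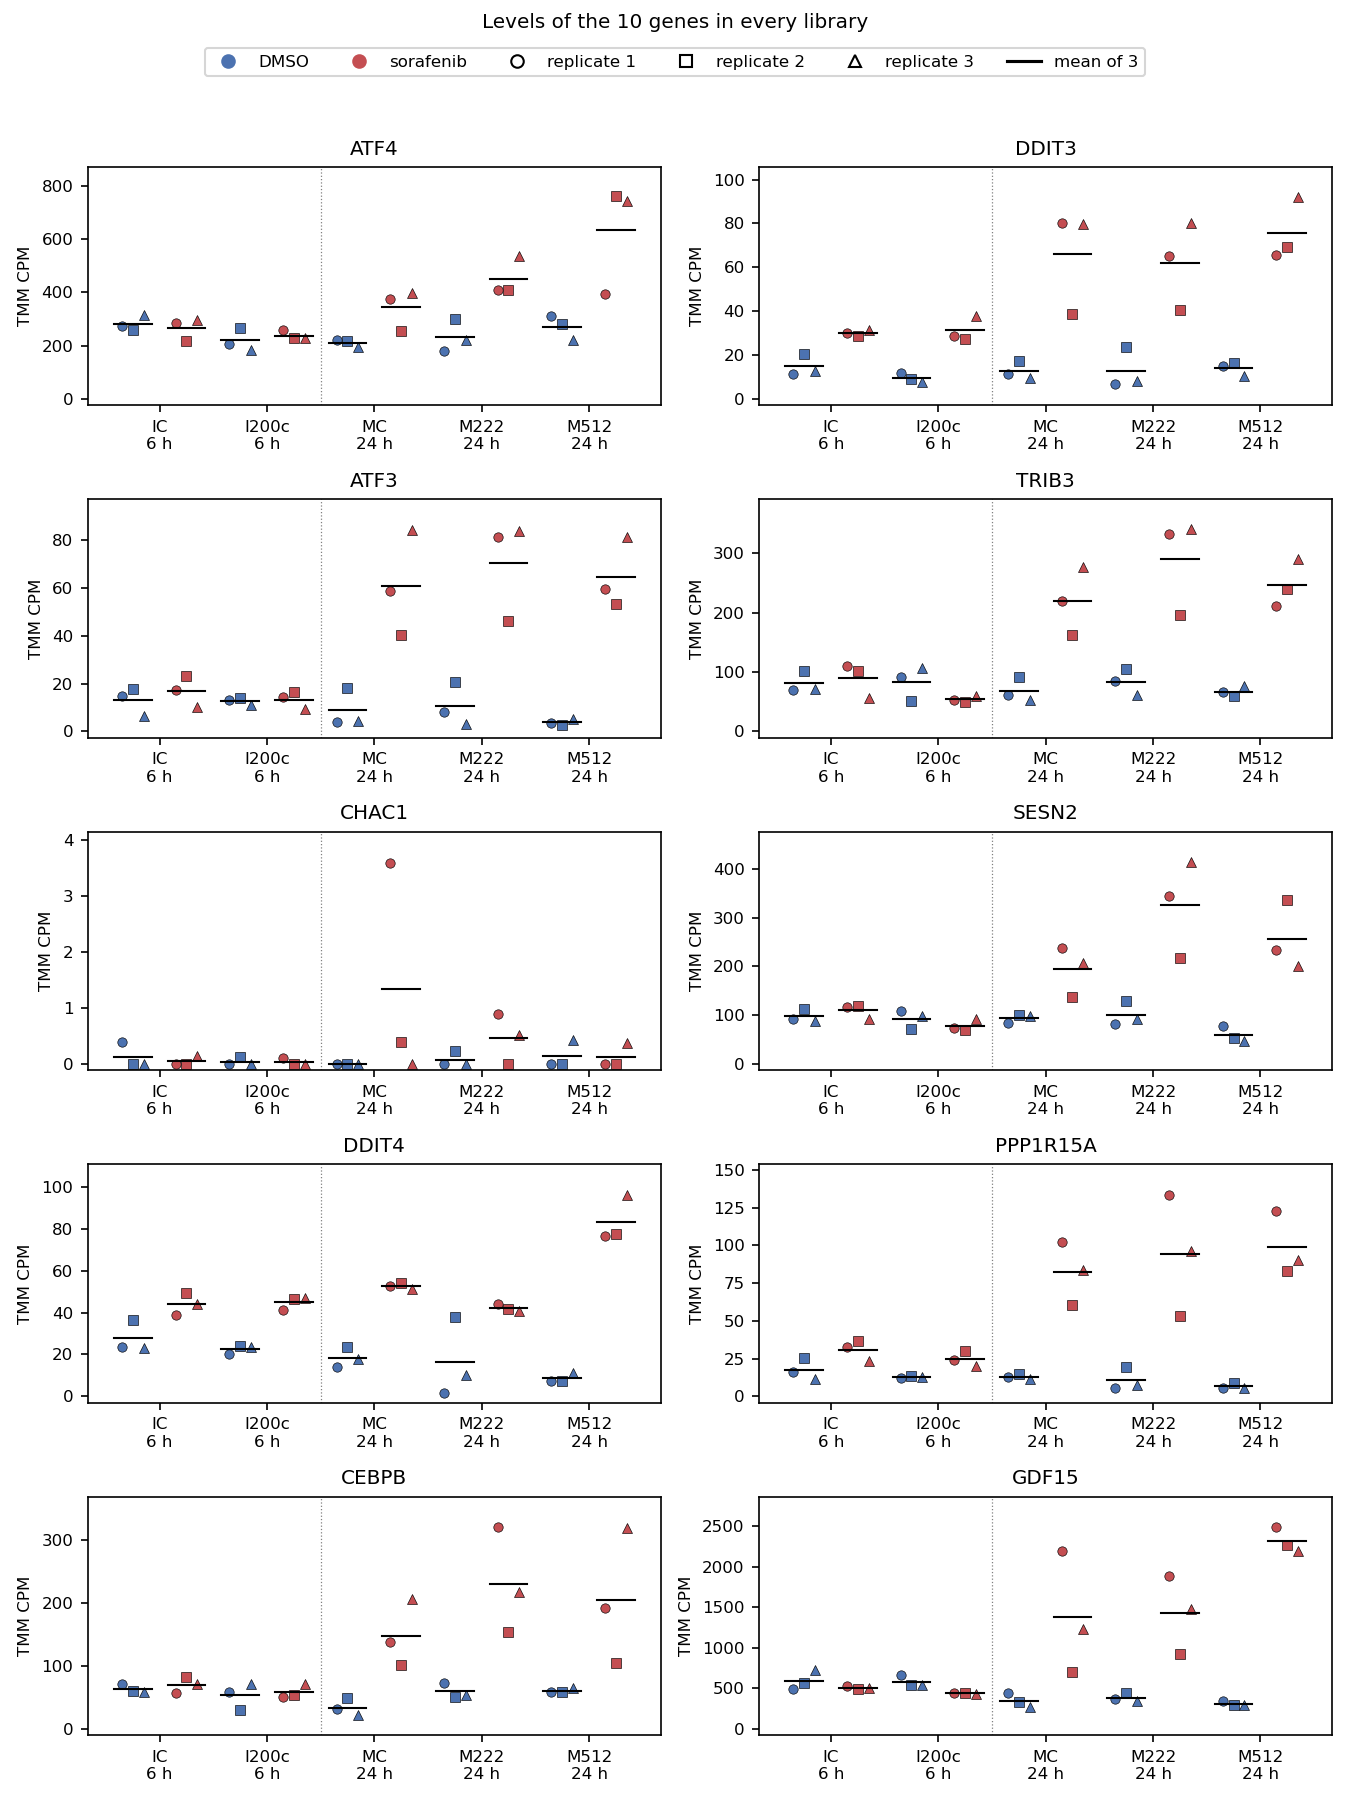
TMM CPM (linear axis, 1 panel a gene) of the 10 genes in each of 30 libraries, with DMSO in blue, Sorafenib in red, a symbol for each replicate and a bar for the mean of 3, and a dotted line between 6 h and 24 h. In every panel but CHAC1 the 3 red groups at 24 h lie above the blue group beside them, while at 6 h the red and blue points are close or overlap except for DDIT3, DDIT4 and, in I200c, PPP1R15A and GDF15.

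The median log2 fold change over the 9 genes with Sorafenib was 0.15 in IC, 0.11 in I200c, 2.02 in MC, 1.90 in M222 and 2.40 in M512. Over all genes tested it was 0.00, 0.00, -0.01, -0.03 and -0.03. Scaling by total counts in place of TMM lowered the median of all genes by up to 0.19 (in M512) and left every one of the 9 genes higher at 24 h. The 3 comparisons at 24 h each have their own DMSO cultures.

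ATF4 (ENSG00000128272, chr22:39519695-39522683, plus strand) encodes the transcription factor that the response is built around and is controlled mostly at translation. At 24 h, ATF4 was 221.5, 218 and 196 CPM in the MC cultures with DMSO and 377, 255 and 398 CPM with Sorafenib (replicates 1, 2 and 3). ATF4 in the M222 cultures was 180.1, 299 and 223 CPM with DMSO and 409, 408 and 536 CPM with Sorafenib. ATF4 in the M512 cultures was 309.9, 282 and 219.6 CPM and 392, 761.5 and 743 CPM. All 3 Sorafenib cultures lay above all 3 DMSO cultures in each transfection, narrowly in MC, where replicate 2 with Sorafenib was low. With Sorafenib, M512 replicate 1 lay well below M512 replicates 2 and 3. The rise was called in M222 (log2 fold change 0.94, SE 0.24, adjusted p = 0.0217) and in M512 (log2 fold change 1.18, SE 0.24, adjusted p = 0.00215) and not in MC (log2 fold change 0.70, SE 0.24, adjusted p = 0.114). In M222 the call was lost without M222_DMSO replicate 1 or 3 or M222_sorafenib replicate 3 (adjusted p up to 0.113), and in MC it was made without MC_sorafenib replicate 2 (0.0388). At 6 h, ATF4 was 274, 257.5 and 315 CPM in IC with DMSO and 287, 216.5 and 295 CPM with Sorafenib. In I200c, ATF4 was 208, 266 and 185 CPM and 259, 228 and 227 CPM. The groups overlapped in both transfections. Neither difference was called (log2 fold change -0.09 in IC and 0.11 in I200c). From the highest mean, the order was M512 (632 ± 208 CPM, SD, n = 3), M222 (451) and MC (343) with Sorafenib, then the other 7 groups from IC with DMSO (282) to MC with DMSO (212). Only M222 and MC with Sorafenib, of the neighbours in that order, did not overlap.

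DDIT3 (ENSG00000175197, chr12:57516588-57521737, minus strand) encodes CHOP, a C/EBP-family factor that promotes cell death in prolonged stress. At 24 h, DDIT3 was 11.4, 17.4 and 9.545 CPM in the MC cultures with DMSO and 80.4, 38.9 and 79.6 CPM with Sorafenib (replicates 1, 2 and 3). DDIT3 in the M222 cultures was 6.965, 23.55 and 8.32 CPM with DMSO and 65.3, 40.6 and 80.4 CPM with Sorafenib. DDIT3 in the M512 cultures was 15.1, 16.6 and 10.4 CPM and 65.8, 69.4 and 91.9 CPM. Every Sorafenib culture lay above every DMSO culture. Replicate 2 of MC and M222 was high with DMSO and low with Sorafenib. DDIT3 was higher with Sorafenib in MC (log2 fold change 2.40, SE 0.39, adjusted p = 0.000908), M222 (log2 fold change 2.29, SE 0.39, adjusted p = 0.00119) and M512 (log2 fold change 2.40, SE 0.39, adjusted p = 0.000218), which is 4.9- to 5.26-fold. Without M222_DMSO replicate 2 the log2 fold change of DDIT3 in M222 was 3.06, and without replicate 2 of MC and M222 it was 3.29. At 6 h, DDIT3 was 11.5, 20.7 and 12.9 CPM in IC with DMSO and 30.04, 28.9 and 31.25 CPM with Sorafenib. In I200c, DDIT3 was 12.05, 8.99 and 7.93 CPM and 28.8, 27.3 and 37.9 CPM. The groups did not overlap in either transfection, and DDIT3 and DDIT4 were the genes without overlap in all 5 transfections. The difference was called in I200c (log2 fold change 1.70, SE 0.25, adjusted p = 0.000627) and not in IC (log2 fold change 0.99, SE 0.25, adjusted p = 0.259). From the highest mean, M512 (75.7 ± 14.1 CPM, SD, n = 3), MC (66.3) and M222 (62.1) with Sorafenib overlapped, then I200c (31.3) and IC (30.1) with Sorafenib, then the 5 DMSO groups from 15.02 to 9.66 CPM, and neighbours overlapped within each of these 3 blocks and not between them. The 3′ end of DDIT3 lies over MARS1, on the opposite strand, for 982 bases, and the use of strand in counting is not given in the sources used here, so reads of both genes cannot be told apart. MARS1, a methionyl-tRNA synthetase, held 16435 counts over 30 libraries and DDIT3 6489. MARS1 with Sorafenib had a log2 fold change of 0.11 in IC, 0.18 in I200c, 1.12 in MC (adjusted p = 0.0402), 1.45 in M222 (0.00569) and 0.83 in M512 (0.074), and its part in the DDIT3 values was not tested.

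ATF3 (ENSG00000162772, chr1:212565334-212620777, plus strand) encodes a stress-induced factor that represses or activates genes with its basic leucine zipper partners. At 24 h, ATF3 was 3.92, 18.2 and 4.55 CPM in the MC cultures with DMSO and 58.5, 40.3 and 83.99 CPM with Sorafenib (replicates 1, 2 and 3). ATF3 in the M222 cultures was 8.16, 20.6 and 3.12 CPM with DMSO and 81.2, 46.05 and 83.8 CPM with Sorafenib. ATF3 in the M512 cultures was 3.445, 2.71 and 5.205 CPM and 59.4, 53.1 and 81.2 CPM. The Sorafenib cultures lay above the DMSO cultures in all 3 transfections, and replicate 2 of MC and M222 with DMSO was the highest DMSO culture of its group. ATF3 rose in MC (log2 fold change 2.85, SE 0.52, adjusted p = 0.00274), M222 (log2 fold change 2.76, SE 0.51, adjusted p = 0.00287) and M512 (log2 fold change 4.05, SE 0.56, adjusted p = 3.94e-05). The log2 fold change of ATF3 was 3.88 in MC without MC_DMSO replicate 2 and 3.63 in M222 without M222_DMSO replicate 2. At 6 h, ATF3 was 14.95, 17.9 and 6.59 CPM in IC with DMSO and 17.5, 23.1 and 10.04 CPM with Sorafenib. In I200c, ATF3 was 13.1, 14.03 and 11.1 CPM and 14.3, 16.3 and 9.20 CPM. All groups overlapped. The log2 fold change was 0.34 in IC and 0.06 in I200c, neither called. By mean level, M222 (70.4 ± 21.1 CPM, SD, n = 3), M512 (64.6) and MC (60.9) with Sorafenib overlapped and stood above IC with Sorafenib (16.9). The remaining neighbours overlapped down to M512 with DMSO (3.79).

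CEBPB (ENSG00000172216, chr20:50190830-50192668, plus strand) encodes C/EBP beta, a factor that pairs with ATF4 and CHOP and also serves the acute phase response of liver. At 24 h, CEBPB was 31.3, 48.2 and 21 CPM in the MC cultures with DMSO and 138, 101 and 205 CPM with Sorafenib (replicates 1, 2 and 3). CEBPB in the M222 cultures was 72.7, 50.9 and 54.1 CPM with DMSO and 320, 153 and 217 CPM with Sorafenib. CEBPB in the M512 cultures was 57.95, 57.9 and 65.1 CPM and 192, 105 and 318 CPM. No Sorafenib culture overlapped a DMSO culture, but the Sorafenib cultures were widely spread, most of all in M512, where replicate 2 was lowest and replicate 3 highest. CEBPB rose in MC (log2 fold change 2.15, SE 0.35, adjusted p = 0.000908), M222 (log2 fold change 1.95, SE 0.34, adjusted p = 0.00178) and M512 (log2 fold change 1.74, SE 0.34, adjusted p = 0.00172). In MC the log2 fold change of CEBPB was 2.75 without replicate 2. At 6 h, CEBPB was 71.65, 60.6 and 58.6 CPM in IC with DMSO and 56.75, 82.1 and 71.4 CPM with Sorafenib. In I200c, CEBPB was 58.5, 29.7 and 70.3 CPM and 51.04, 54.2 and 70.25 CPM. The groups overlapped in both. The log2 fold change was 0.13 in IC and 0.14 in I200c, not called. The mean level was highest in M222 (230.1 ± 84.2 CPM, SD, n = 3), M512 (205) and MC (148) with Sorafenib, of which MC did not overlap the next group, IC with Sorafenib (70.1). The lowest group was MC with DMSO (33.5), and neighbours below IC with Sorafenib overlapped.

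TRIB3 (ENSG00000101255, chr20:362835-397559, plus strand) encodes a pseudokinase that restrains ATF4 and AKT and is itself a target of ATF4 and CHOP. At 24 h, TRIB3 was 60.6, 91.8 and 53.3 CPM in the MC cultures with DMSO and 219, 162.5 and 277 CPM with Sorafenib (replicates 1, 2 and 3). TRIB3 in the M222 cultures was 85.2, 104 and 61.01 CPM with DMSO and 332, 196 and 340.2 CPM with Sorafenib. TRIB3 in the M512 cultures was 66.4, 58.95 and 75.7 CPM and 211, 240.3 and 290.1 CPM. All Sorafenib cultures lay above all DMSO cultures of the same transfection. TRIB3 rose in MC (log2 fold change 1.69, SE 0.26, adjusted p = 0.000652), M222 (log2 fold change 1.79, SE 0.26, adjusted p = 0.00034) and M512 (log2 fold change 1.85, SE 0.26, adjusted p = 4.84e-05). At 6 h, TRIB3 was 69.1, 102 and 71.8 CPM in IC with DMSO and 111, 101 and 56.1 CPM with Sorafenib. In I200c, TRIB3 was 91.8, 50.7 and 107 CPM and 53.4, 49.6 and 59.6 CPM. The groups overlapped, and in I200c replicate 2 with DMSO was as low as the Sorafenib cultures. TRIB3 had a log2 fold change of 0.13 in IC and of -0.62 in I200c (adjusted p = 0.23), neither called. In I200c the lower level was called without the filter on low counts (adjusted p = 0.0335) and without I200c_DMSO replicate 2 (0.0381). DESeq2 did not call it (0.196). With Sorafenib, M222 (289 ± 81 CPM, SD, n = 3), M512 (247) and MC (219.6) had the highest means and did not overlap IC with Sorafenib (89.3), the next group. I200c with Sorafenib was lowest (54.2), and all neighbours from IC with Sorafenib down overlapped.

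SESN2 (ENSG00000130766, chr1:28259518-28282491, plus strand) encodes a leucine-sensing sestrin that holds back the growth kinase mTORC1. At 24 h, SESN2 was 82.9, 100.5 and 97.5 CPM in the MC cultures with DMSO and 238, 138 and 206 CPM with Sorafenib (replicates 1, 2 and 3). SESN2 in the M222 cultures was 81.7, 129 and 92.6 CPM with DMSO and 345, 218 and 414 CPM with Sorafenib. SESN2 in the M512 cultures was 78.4, 52.2 and 46 CPM and 234, 336 and 201 CPM. Sorafenib and DMSO cultures did not overlap. The DMSO cultures of M512 were below those of MC and M222. SESN2 rose in MC (log2 fold change 1.06, SE 0.26, adjusted p = 0.029), M222 (log2 fold change 1.68, SE 0.27, adjusted p = 0.000631) and M512 (log2 fold change 2.09, SE 0.27, adjusted p = 2.31e-05). The call in MC was lost when any of replicates 1 and 3 of either MC group was left out, with an adjusted p of up to 0.156. At 6 h, SESN2 was 93.01, 113 and 88.15 CPM in IC with DMSO and 117, 119 and 91.9 CPM with Sorafenib. In I200c, SESN2 was 109, 70.5 and 98.8 CPM and 73.7, 70.03 and 91.75 CPM. The groups overlapped. The log2 fold change was 0.15 in IC and -0.24 in I200c, neither called. In order of the mean, M222 (326 ± 99.6 CPM, SD, n = 3), M512 (257) and MC (194) with Sorafenib came first, and only MC and the next group, IC with Sorafenib (109.5), were neighbours that did not overlap. M512 with DMSO was lowest (58.85).

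DDIT4 (ENSG00000168209, chr10:72273919-72276036, plus strand), also called REDD1, encodes another inhibitor of mTORC1 that answers hypoxia and energy stress as well. At 24 h, DDIT4 was 14.2, 23.5 and 17.6 CPM in the MC cultures with DMSO and 52.97, 54.4 and 51.4 CPM with Sorafenib (replicates 1, 2 and 3). DDIT4 in the M222 cultures was 1.52, 37.8 and 10.2 CPM with DMSO and 44.15, 41.7 and 40.7 CPM with Sorafenib. DDIT4 in the M512 cultures was 7.14, 7.54 and 11.25 CPM and 76.6, 77.7 and 96.2 CPM. The Sorafenib cultures were close together and above the DMSO cultures in each transfection, while the M222 DMSO cultures spread from replicate 1, the lowest of all 30 libraries, to replicate 2. DDIT4 rose in M512 (log2 fold change 3.24, SE 0.55, adjusted p = 0.000423). In MC (log2 fold change 1.54, SE 0.52, adjusted p = 0.111) and M222 (log2 fold change 1.40, SE 0.52, adjusted p = 0.134) the difference was not called. It was called in both with no filter on low counts (adjusted p = 2.49e-05 and 0.000238) and with all 30 libraries in one fit (0.0319 and 0.0434). It was called in neither by DESeq2 (0.165 and 0.209) nor with the replicate number as a block (0.0726 and 0.061). With no filter, adjusted p-values were smaller for other genes too, at like fold changes. For GDF15 in MC it was 7.73e-18 in place of 0.000534. Leaving out M222_DMSO replicate 2 raised the log2 fold change in M222 to 2.94 (adjusted p = 0.000359). Without replicate 2 of MC and M222 it was 1.76 in MC (0.0352) and 2.95 in M222 (0.00109). At 6 h, DDIT4 was 23.7, 36.55 and 22.95 CPM in IC with DMSO and 38.9, 49.5 and 44.4 CPM with Sorafenib. In I200c, DDIT4 was 20.1, 24.01 and 23.7 CPM and 41.4, 46.7 and 46.8 CPM. Neither transfection showed an overlap. DDIT4 was higher with Sorafenib in I200c (log2 fold change 0.99, SE 0.20, adjusted p = 0.0106), a call lost with all 30 libraries in one fit (0.427), and the difference in IC was not called (log2 fold change 0.66, SE 0.20, adjusted p = 0.545). M512 with Sorafenib had the highest mean (83.5 ± 11 CPM, SD, n = 3), apart from MC with Sorafenib (52.9), which was apart from I200c (44.99), IC (44.3) and M222 (42.2) with Sorafenib. These 3 overlapped each other as neighbours and stood above the 5 DMSO groups, which ran from IC (27.7) to M512 (8.64) and overlapped.

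PPP1R15A (ENSG00000087074, chr19:48872212-48876059, plus strand), or GADD34, encodes the stress-induced subunit that directs a phosphatase to eIF2 and so closes the feedback loop. At 24 h, PPP1R15A was 13.04, 14.8 and 11.45 CPM in the MC cultures with DMSO and 102, 60.6 and 83.4 CPM with Sorafenib (replicates 1, 2 and 3). PPP1R15A in the M222 cultures was 5.22, 19.5 and 7.45 CPM with DMSO and 133, 53.1 and 96.35 CPM with Sorafenib. PPP1R15A in the M512 cultures was 5.41, 9.05 and 5.49 CPM and 123, 83.15 and 90.6 CPM. All Sorafenib cultures exceeded all DMSO cultures, and replicate 2 with Sorafenib was the lowest of its group each time. PPP1R15A rose in MC (log2 fold change 2.66, SE 0.38, adjusted p = 0.000534), M222 (log2 fold change 3.18, SE 0.39, adjusted p = 0.000118) and M512 (log2 fold change 3.87, SE 0.41, adjusted p = 3.06e-06), between 6.32- and 14.6-fold. Without M222_DMSO replicate 2 the log2 fold change of PPP1R15A in M222 was 3.94, and without replicate 2 of MC and M222 it was 4.23. At 6 h, PPP1R15A was 16.1, 25.2 and 11.5 CPM in IC with DMSO and 32.65, 36.9 and 23.2 CPM with Sorafenib. In I200c, PPP1R15A was 12.35, 13.7 and 13.1 CPM and 24.3, 29.9 and 19.8 CPM. The groups overlapped in IC and not in I200c. The difference was not called in IC (log2 fold change 0.80, SE 0.27, adjusted p = 0.784) or in I200c (log2 fold change 0.92, SE 0.27, adjusted p = 0.0772). In I200c, PPP1R15A was called with the replicate number as a block (adjusted p = 0.0428), by DESeq2 (0.0494) and with no filter on low counts (0.0189). By mean, M512 (98.8 ± 21 CPM, SD, n = 3), M222 (94.3) and MC (82.1) with Sorafenib overlapped and stood apart from the next group, IC with Sorafenib (30.9). Further neighbours overlapped, down to M512 with DMSO (6.65).

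CHAC1 (ENSG00000128965, chr15:40952962-40956512, plus strand) encodes an enzyme that breaks down glutathione and is a widely used marker of the ATF4 and CHOP arm. It was barely detected. Its raw counts were 26, 2 and 0 in the MC cultures with Sorafenib and 0 in all 3 with DMSO. In M222 they were 7, 0 and 3 with Sorafenib and 0, 1 and 0 with DMSO, and in M512 0, 0 and 3 with either. At 6 h no library held more than 2. Only replicate 1 of MC and replicate 1 of M222 with Sorafenib, at 3.60 and 0.901 CPM, held more than 3 counts, and all neighbours in the order of the means overlapped. The gene did not pass the filter on low counts and was called in none of the fits without that filter. A rise like that of the other genes was not detectable for CHAC1 at this depth, although its promoter holds the composite element shown above.

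GDF15 (ENSG00000130513, chr19:18374731-18389176, plus strand) encodes the secreted hormone and is the output of the group that leaves the cell. At 24 h, GDF15 was 435, 325 and 264 CPM in the MC cultures with DMSO and 2195, 699 and 1229 CPM with Sorafenib (replicates 1, 2 and 3). GDF15 in the M222 cultures was 368, 434.5 and 344 CPM with DMSO and 1889, 919.5 and 1475 CPM with Sorafenib. GDF15 in the M512 cultures was 345, 291 and 296 CPM and 2492, 2263 and 2189 CPM. All Sorafenib cultures were above all DMSO cultures. Replicate 2 was the lowest Sorafenib culture in MC and M222, whereas the 3 M512 cultures were close together. GDF15 rose in MC (log2 fold change 2.02, SE 0.30, adjusted p = 0.000534), M222 (log2 fold change 1.90, SE 0.30, adjusted p = 0.000622) and M512 (log2 fold change 2.87, SE 0.31, adjusted p = 3.16e-06), that is 4.05-, 3.72- and 7.3-fold. At 6 h, GDF15 was 488.5, 569 and 725 CPM in IC with DMSO and 529.8, 494 and 499 CPM with Sorafenib. In I200c, GDF15 was 664, 535 and 538 CPM and 436.5, 446 and 430 CPM. In I200c every Sorafenib culture lay below every DMSO culture, and in IC the groups overlapped. Neither difference was called: the log2 fold change was -0.24 (SE 0.15, adjusted p = 0.999) in IC and -0.41 (SE 0.15, adjusted p = 0.16) in I200c, with an unadjusted p of 0.0109 in I200c. M512 with Sorafenib had the highest mean (2315 ± 158 CPM, SD, n = 3) and did not overlap the next, M222 with Sorafenib (1428), though replicate 1 of MC with Sorafenib (mean 1374) lay within its range. IC (594) and I200c (579) with DMSO followed and overlapped their neighbours above, then IC (507.5) and I200c (437.5) with Sorafenib, which overlapped neither each other nor I200c with DMSO. The 24 h DMSO groups were lowest, from M222 (382), which overlapped I200c with Sorafenib, to M512 (310.5).

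**Figure D2:**
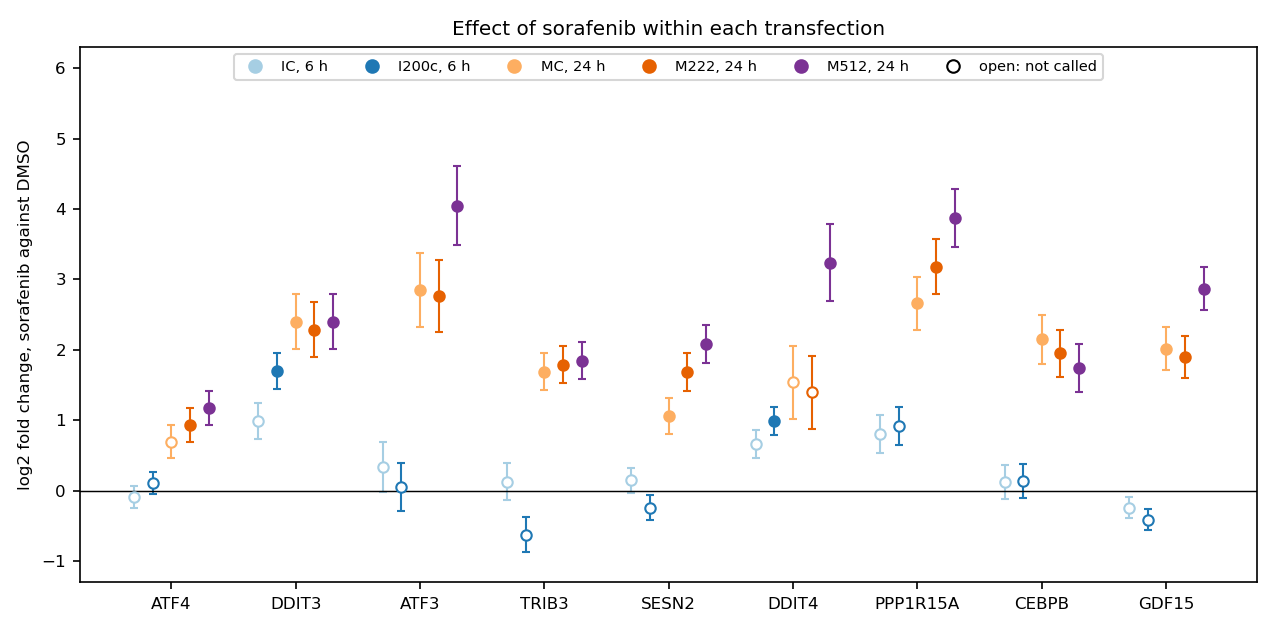
Log2 fold change of Sorafenib against DMSO with its standard error as a bar (edgeR, 3 against 3 libraries), for the 9 genes tested and each transfection, filled where called at an adjusted p under 0.05. At 24 h every value is above 0, from 0.70 for ATF4 in MC to 4.05 for ATF3 in M512. At 6 h the 2 filled points are DDIT3 and DDIT4 in I200c. Below 0 at 6 h lie GDF15 in both transfections, TRIB3 (-0.62) and SESN2 (-0.24) in I200c, and ATF4 (-0.09) in IC.

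The effect of Sorafenib differed between 6 h and 24 h, in the control transfections, by the interaction of time with Sorafenib for 2 of 9 genes, where 0.216% of all genes were called. GDF15 had an interaction of 2.23 on the log2 scale (SE 0.41, adjusted p = 0.0321), from 0.849-fold at 6 h to 4.05-fold at 24 h, and CEBPB one of 2.01 (SE 0.38, adjusted p = 0.0411), from 1.09- to 4.45-fold. All 9 genes had a positive interaction and an unadjusted p under 0.05. Of all 12500 genes tested, 896 were positive at that threshold, and 13.7% were under it in either direction. After GDF15 and CEBPB, the smallest adjusted p was that of PPP1R15A (1.84, adjusted p = 0.0727), then that of TRIB3 (1.54, 0.103). The count depended on the libraries and the fit. It was 4 by DESeq2, 7 with no filter, 1 with the replicate block and 8 without replicate 2 of MC. Leaving out 1 library gave 0 to 7, with 7 without MC_sorafenib replicate 2, 5 without MC_DMSO replicate 2, 1 without MC_sorafenib replicate 1 and 0 without any of the other 9. The 6 h and 24 h controls carried different control oligonucleotides, which cannot be told apart from time.

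Between transfections at the same time and treatment, 0 of 9 genes were called by edgeR in each of 6 comparisons. At an unadjusted p under 0.05 there were 2 in I200c against IC with DMSO and 2 with Sorafenib, 1 in M222 against MC with DMSO and 1 with Sorafenib, 4 in M512 against MC with DMSO and 2 with Sorafenib. At that threshold stood 5.24% and 2.14% of all genes for I200c, 5.56% and 6.04% for M222, and 10.5% and 11.1% for M512. Of all genes, 0.0157% and 0% were called for I200c with DMSO and Sorafenib, 0% in both for M222, and 0.634% and 0.355% for M512. DESeq2 called 0 of them in 5 of the 6, and ATF4 in M512 against MC with Sorafenib (adjusted p = 0.0334). With DMSO, the 4 of M512 against MC were SESN2 (log2 fold change -0.67, SE 0.26, adjusted p = 0.325), PPP1R15A (log2 fold change -0.98, SE 0.39, adjusted p = 0.339), ATF3 (log2 fold change -1.16, SE 0.56, adjusted p = 0.473) and CEBPB (log2 fold change 0.85, SE 0.34, adjusted p = 0.338). With Sorafenib they were ATF4 (log2 fold change 0.83, SE 0.24, adjusted p = 0.123) and GDF15 (log2 fold change 0.71, SE 0.29, adjusted p = 0.347). DDIT3 and DDIT4, whose 3′ UTRs hold the miR-222-5p match, had log2 fold changes of -0.02 (SE 0.39) and -0.22 (SE 0.53) in M222 against MC with DMSO, and of -0.13 (SE 0.36) and -0.36 (SE 0.50) with Sorafenib. MC is the control of both mimics, so these comparisons share libraries.

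The interaction of a transfection with Sorafenib, which asks whether the oligonucleotide changed the effect of the drug, was called by edgeR for 0 of 9 genes with I200c, M222 and M512, and for 0 by DESeq2 in each. Of all genes, 0% were called with I200c, 0% with M222 and 0.00755% with M512. The count with an unadjusted p below 0.05 was 0 for I200c, 0 for M222 and 4 for M512, where 3.24%, 1.96% and 5.04% of all genes were below it. The 4 were SESN2 (1.03 on the log2 scale, SE 0.37), DDIT4 (1.70, SE 0.73), PPP1R15A (1.21, SE 0.53) and GDF15 (0.85, SE 0.41), with an adjusted p from 0.872 to 0.965. In M512 the Sorafenib effect was larger than in MC for these 4 by size, with a lower mean DMSO level and a higher mean Sorafenib level in each, but not past the test over all genes. Without replicate 2 of MC and M222, the log2 fold change in MC was 1.35 (SESN2), 1.76 (DDIT4), 2.96 (PPP1R15A) and 2.33 (GDF15). With all libraries it was 1.06, 1.54, 2.66 and 2.02 in MC, and 2.09, 3.24, 3.87 and 2.87 in M512.

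The other genes of the pathway were taken by role from lists chosen for this comparison. The 4 eIF2 kinases (EIF2AK1 to EIF2AK4 by symbol) were called in none of the 5 Sorafenib comparisons. Of the 11 eIF2, eIF2B and phosphatase subunits, 2 were higher in MC, 3 in M222 and 3 in M512, where 1.8%, 2.82% and 5.34% of all genes were higher, which are the shares to set beside each list count that follows. PPP1R15B, the constitutive partner of the eIF2 phosphatase, was higher by 1.26 (SE 0.28, adjusted p = 0.0119) in MC, 1.03 (SE 0.28, adjusted p = 0.0305) in M222 and 1.26 (SE 0.27, adjusted p = 0.00398) in M512 on the log2 scale. EIF2S2, the beta subunit of eIF2, was higher by 0.85 (SE 0.21, adjusted p = 0.029), 0.90 (SE 0.21, adjusted p = 0.0146) and 0.83 (SE 0.21, adjusted p = 0.0125). The 6 genes of the relay from mitochondria to eIF2 had 1 call, OMA1, a mitochondrial protease, at -1.68 in M512 (adjusted p = 0.0335), where 9.96% of all genes were called.

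Among 14 basic leucine zipper partners tested of 15, the count of higher genes was 5 in MC, 6 in M222 and 7 in M512. CREB1 was lower in M512. JUNB and JUN, subunits of AP-1, had log2 fold changes of 3.24 and 2.43 in MC, 3.25 and 2.80 in M222, and 4.63 and 3.72 in M512, followed by the small MAF protein MAFF (2.01, 2.26 and 2.38) and CEBPG, a dimer partner of ATF4 (1.91, 2.06 and 1.69). Of 26 other ATF4 and CHOP targets tested of 27, higher genes numbered 12 in MC, 12 in M222 and 15 in M512. ALDH18A1 was lower in M512. The cystine transporter SLC7A11 had the largest mean log2 fold change of those called in at least 2 transfections (2.91, 2.84 and 2.98), before asparagine synthetase ASNS (2.21, 2.55 and 2.51), the cysteine-making enzyme CTH (2.01, 2.13 and 2.09) and NUPR1, a stress-induced nuclear protein (1.47, 1.67 and 2.71). The list's median log2 fold change was 0.83, 1.05 and 1.03, beside -0.01, -0.03 and -0.03 over all genes. Of 15 genes of the chaperone, IRE1 and ATF6 branch of endoplasmic reticulum stress, 2 rose in MC, 2 in M222 and 1 in M512, with a median of 0.22, 0.41 and 0.23, and the count in M512 was near the 5.34% of all genes. ERN1, which encodes the sensor IRE1, was higher in all 3 (2.50, 2.70 and 1.85), and HERPUD1, of endoplasmic reticulum degradation, in MC and M222 (1.12 and 1.35).

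**Figure D3:**
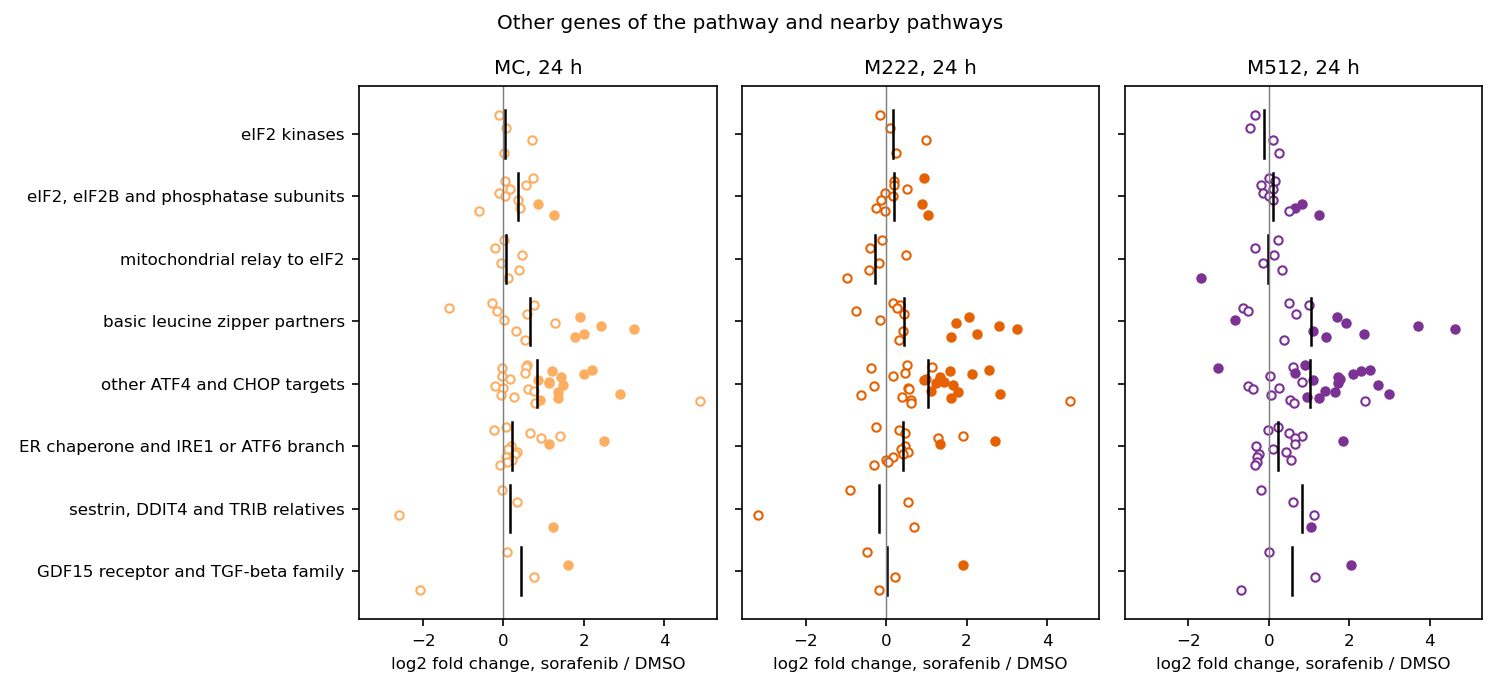
Log2 fold change of Sorafenib against DMSO at 24 h for the other genes of the pathway and nearby pathways, 1 point a gene tested, filled where called at an adjusted p under 0.05, with a black bar at the list's median. Most calls sit in the ATF4 and CHOP targets (12 of 26 higher in MC) and the basic leucine zipper partners (5 of 14), while the eIF2 kinases show none.

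Of 4 tested sestrin, DDIT4 and TRIB relatives, TRIB1 was higher in MC (1.23) and M512 (1.04) and was not called in M222 (0.70, adjusted p = 0.0995). Of 4 tested genes of the GDF15 receptor and TGF-beta family list, the activin subunit INHBE was higher in all 3 transfections (1.60, 1.92 and 2.04), and the GDF15 receptor genes GFRAL and RET did not pass the filter. At 6 h in I200c, JUN (0.87) and JUNB (1.35) were higher and JUND (-0.69) was lower. SLC7A11, higher at 24 h, was lower at 6 h in I200c (-1.25, adjusted p = 0.0388), and TNFRSF10B was lower too (-0.86), while NUPR1 was higher (0.80). In IC none of the genes of the lists described was called.

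Across libraries, GDF15 followed the other genes more closely at 24 h than at 6 h. Pearson's r of log2(TMM CPM + 1), given as a description over libraries that share scaling and treatment groups, was 0.67 to 0.88 for 8 of the other 9 genes and 0.46 for CHAC1. Within the 18 libraries of 24 h it was 0.80 to 0.94 for these 8. Within the 12 libraries of 6 h it was -0.71 for DDIT4, -0.58 for PPP1R15A and -0.57 for DDIT3, and 0.44 for TRIB3. Between these lay ATF3 (-0.34), CHAC1 (-0.26), CEBPB (-0.11), ATF4 (0.18) and SESN2 (0.33). Among 9691 other genes with a mean of at least 5 CPM, the patterns most like GDF15 were JAG1 and KCMF1 (both 0.94), EIF1 (0.93), GARS1 and RIOK3 (both 0.92). Within 6 h the r of KCMF1 and EIF1 was 0.65 and 0.54, and that of JAG1, GARS1 and RIOK3 was -0.11, 0.01 and -0.04. The mean z-score of the other 9 genes was followed most closely by GARS1 (0.97), ASNS, GADD45A and MT-CO1 (each 0.96) and the symbol-less ENSG00000279766 (0.95), of which GARS1 and ASNS, a glycyl-tRNA synthetase and the asparagine synthetase, are in the list of ATF4 targets above. Mitochondrial genes together held 17.47 to 26.76% of a library.

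**Figure D4:**
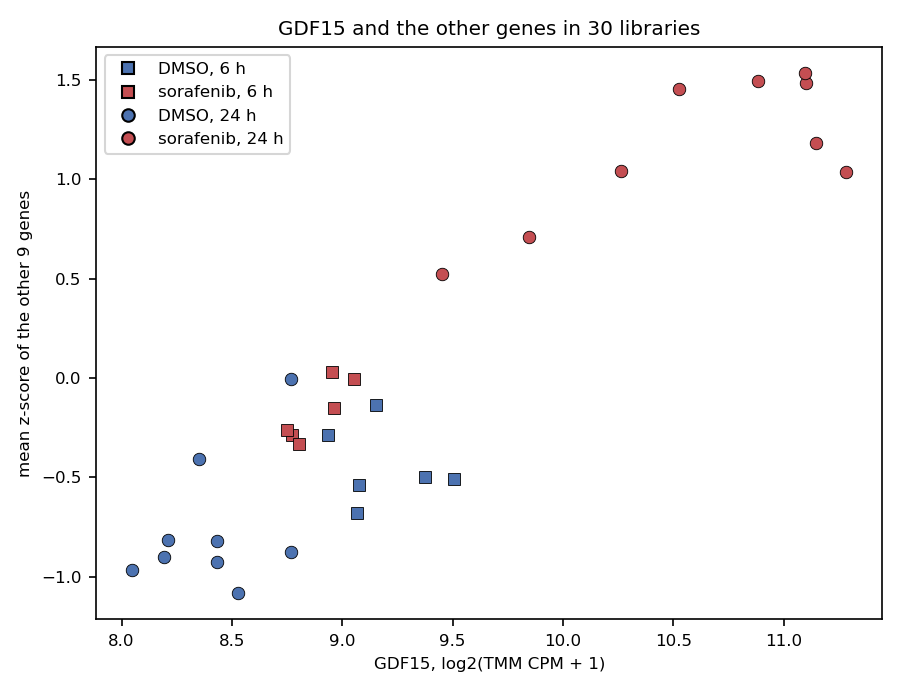
GDF15 level (log2 of TMM CPM + 1) on the horizontal axis and the mean z-score of the other 9 genes on the vertical axis in 30 libraries, squares for 6 h, circles for 24 h, DMSO in blue and Sorafenib in red. The 9 circles with Sorafenib lie apart at the upper right, and at 6 h the red squares lie to the left of 5 of the 6 blue squares.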

How the data were processed

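HepG2 messenger RNA was sequenced from 30 libraries as 3′ tags with a QuantSeq forward kit. The authors deposited raw read counts per Ensembl gene, made by trimming, alignment to GRCh38 with STAR and counting with HTSeq-count. Their versions, the annotation release, the use of strand and of molecular identifiers are not given in the sources used here, so reads from genes overlapping on opposite strands cannot be told apart. A deposited table of normalised values was not used. Lines naming no gene (92 lines, 3 counts in all) were left out.

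Groups followed the sample labels. Genes with low counts were removed with filterByExpr (minimum count 10, minimum total count 15), which left 12738 genes in the 12 libraries of 6 h, 13244 in the 18 of 24 h and 12500 in the 12 of the 2 transfection controls. Each set was fitted with edgeR 4.0.16 in R 4.3.3 (TMM, quasi-likelihood F test, 1 coefficient per group), and p-values were Benjamini-Hochberg adjusted over all genes tested. Each SE was derived from the log2 fold change and its F statistic. The script was tested on simulated data. The alternatives were DESeq2 1.42.0, RLE size factors, total counts, no filter on low counts, all 30 libraries in one fit, the replicate number as a block and each library left out. An exact two-sided permutation test of 3 against 3 cannot go below p = 0.1, so none was used.

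The genes, lists and tests were chosen with earlier results of these data known. From each list, the named genes were those called in the same direction in at least 2 of the 3 Sorafenib comparisons at 24 h, at most 4, by mean absolute log2 fold change; calls in 1 comparison or at 6 h were named after their values were seen. Genes of like pattern were the 5 with the highest r among genes with a mean of at least 5 CPM. Gene positions are those of GENCODE release 44 (GRCh38). A further gene list is not reported here.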

Additional observations from a re-analysis of the deposited data

Results flagged for a closer look

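The effect of Sorafenib on 2 of the genes differed between 6 h (IC) and 24 h (MC) by the test of the difference itself, the edgeR interaction term. GDF15 had an interaction of 2.23 on the log2 scale (SE 0.41, adjusted p = 0.0321), with 3 of 3 Sorafenib cultures above the DMSO cultures at 24 h and overlapping groups at 6 h. CEBPB had an interaction of 2.01 (SE 0.38, adjusted p = 0.0411), with the same arrangement of the cultures. The call of GDF15 was lost in 9 of 12 fits that left out 1 library and that of CEBPB in 10 of 12. Time and the kind of control oligonucleotide cannot be told apart in this comparison. Single outlying cultures were not searched for, since every group had 3.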

How the results depend on the processing

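Counts of the 9 genes called kept within 1.5 times for Sorafenib in IC, MC, M222 and M512 under every alternative, and with 1 library left out they ran from 6 to 8 in MC, 7 to 9 in M222 and 9 to 9 in M512. In I200c the count of 2 became 4 with no filter on low counts and 1 with all 30 libraries in one fit. M512 against MC gave 3 with DMSO and no filter, and 1 with Sorafenib by DESeq2, with no filter and with all 30 libraries (ATF4 each time). The interaction of M512 with Sorafenib gave 1 with no filter (DDIT4). The interaction of time gave 4 by DESeq2, 7 with no filter, 1 with the replicate block, 8 without replicate 2 of MC and of M222 (chosen after seeing the data) and 0 to 7 with 1 library left out, 7 without MC_sorafenib replicate 2. With no filter, adjusted p-values were smaller at like fold changes, 7.73e-18 in place of 0.000534 for GDF15 with Sorafenib in MC. The cause of these changes was not tested.

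The sign changed only for differences near 0 at 6 h that were not called, when 1 library was left out. ATF4 in IC ran from -0.17 to 0.04, and was 0.00 without IC_DMSO replicate 3 and 0.04 without IC_sorafenib replicate 2. TRIB3 in IC ran from -0.05 (without IC_sorafenib replicate 1) to 0.38. ATF3 in I200c ran from -0.11 (without I200c_sorafenib replicate 2) to 0.28 and was -0.03 without I200c_DMSO replicate 3. CEBPB in I200c ran from -0.13 (without I200c_DMSO replicate 2) to 0.41.

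The replicate numbers are shared between groups. Same-numbered libraries deviated together, with every correlation over 0.1, only for M222 against MC with DMSO (0.18 to 0.19). There 0 of the 9 genes were called with and without the block. Of all genes, 3 were called with the block and 0 without it. In the other comparisons they did not do so for every number, although single pairs did. For Sorafenib against DMSO, replicate 3 correlated at 0.25 in IC, 0.19 in I200c and 0.18 in M512. For M512 against MC with Sorafenib, replicate 3 correlated at 0.18. Replicate 2 of M222 and MC with Sorafenib correlated at 0.22, and same-numbered libraries of Sorafenib in M222 at 0.09 to 0.12. The block changed the call of PPP1R15A in I200c (adjusted p = 0.0428) and of CEBPB in the interaction of time (0.0704). With 3 cultures of 1 line in each group and 3938764 to 9657063 counts, changes of CHAC1 could not be measured. Scaling by total counts moved the levels of DDIT4 in M222 with Sorafenib (39.8 CPM) and of GDF15 in I200c (446.4 CPM) and M512 (2034 CPM) with Sorafenib by more than their SD.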
